A study of Mus musculus with 21 samples.

Results

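The effect of Bmal1 deletion at lights off was taken from 11 of the 21 libraries of the series, 6 from control mice and 5 from knockout mice killed at ZT12, and was described over the 20256 of 53801 genes whose counts over all libraries summed to 10 or more. Each library held poly-A RNA of IgA+ plasma cells (PCs), the cells that make the IgA released into the gut, sorted as CD138+ IgA+ cells from the digested lamina propria of the small intestine of a single mouse. The study asked how far the clock inside these cells sets their transcription, and the other 10 libraries came from mice of the same genotypes at ZT0, the time of lights on. The mice were of the C57BL/6 strain, the controls were littermates of the knockouts, and both genotypes were homozygous for a floxed allele of *Arntl*, the gene of Bmal1 (labelled Arntlfl/fl). Control mice carried no Cre (Mb1Cre-/-). Knockout mice carried 1 Cre allele at Mb1, another name of *Cd79a*, a gene switched on early in the B cell lineage, so that the deletion was neither limited to gut PCs nor timed. No mice with Cre but without floxed *Arntl* were analysed here, so that the effects of the Cre allele and of the *Arntl* deletion cannot be told apart. The age of the mice is not given in the sources used here. Genotypes were read from the sample titles, because the genotype field of all 5 knockout samples at ZT12 (and of 3 of the 4 at ZT0) names the control genotype.

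Bmal1 pairs with CLOCK, and the pair binds E-box sequences and switches on the genes of its own repressors, the Period and Cryptochrome proteins. It also switches on *Nr1d1* and *Nr1d2*, which encode the nuclear receptors REV-ERB alpha and REV-ERB beta, and these in turn hold down *Arntl* and other genes with ROR elements. The PAR bZip factors DBP, TEF and HLF and their antagonist NFIL3 carry the rhythm on to D-box sequences. In plasma cells this loop runs beside a secretory programme that gives most of the cell's messenger RNA over to immunoglobulin.

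Depth at ZT12 lay between 14580139 and 22785835 counts a library, of which 5903489 to 10087668 fell outside immunoglobulin genes. *Igha* had a mean of 354000 CPM (counts scaled to the library's total and by edgeR's TMM factors) in control and 285000 CPM in knockout libraries, against 346 and 225 CPM for *Ighm*. Control replicate 2 stood apart, with the lowest TMM factor (0.722) and the highest immunoglobulin share (63.6% of counts). Some of the results that it moves, but not all, are given without it too. Both groups mixed the sexes: *Xist* was high in 3 of 6 control and 2 of 5 knockout libraries. Knockout replicate 5 was one of the latter and also held 2.23 CPM of the Y-linked gene *Ddx3y*, against 87.5 to 114 CPM in the ZT12 libraries with low *Xist* and 0.145 CPM or less in the control libraries with high *Xist*. At ZT0, knockout replicate 3 held 428 CPM of *Xist* together with 20.7 CPM of *Ddx3y*. The summed level of 19 epithelial markers ran from 81.8 to 1113 CPM in control and from 69.6 to 836 CPM in knockout libraries, with 0 of the 19 called or past an unadjusted p of 0.05, although 17 of the 19 had a negative log2 fold change (median -0.61 at ZT12 and -0.77 at ZT0). The part of epithelial RNA in the results was not tested beyond a fit with these markers as a covariate, in which *Nr1d2* and *Cd79a* were still called. In bulk RNA, fewer cells of a type and less RNA per cell cannot be told apart.

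Few genes passed the test at ZT12. At a Benjamini-Hochberg adjusted p under 0.05 in edgeR's quasi-likelihood test, 3 of 20256 genes were called (0.0148%): *Nr1d2* and *Cd79a* were lower in knockout IgA+ PCs and *Ighv1-38* was higher. DESeq2 called 8, among them these 3. At an unadjusted p under 0.05, a mark used below for description only, 861 genes were higher (4.25%) and 928 lower (4.58%). All 5 knockout libraries lay above all 6 control libraries for 49 genes (0.242%) and below them for 28 (0.138%).

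*Nr1d2* was the gene with the smallest p. Its level was 52.1, 63.6 and 73.5 CPM (lowest, median and highest) in the 6 control libraries. In the 5 knockout libraries, in ascending order, it was 8.69, 9.61, 11.01, 11.9 and 13.45 CPM. Every knockout library was thus far below the lowest control library, and the knockout mean was 17.1% of the control mean. The log2 fold change was -2.55 with a standard error of 0.13 (adjusted p = 6.06e-13, edgeR). It stayed called in edgeR and DESeq2 and with any of the 21 libraries left out, between -2.63 and -2.48. Within the libraries with high *Xist* the ratio of means was -2.65 on the log2 scale, and within those with low *Xist* -2.54.

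*Cd79a* encodes the Ig alpha chain of the B cell receptor, and its locus carries the Cre allele. Control libraries held 404, 488 and 584 CPM (lowest, median and highest). Knockout libraries held 177, 196, 213, 234 and 249 CPM. The groups were fully separated, in the direction of the titles and not of the genotype field. The log2 fold change was -1.18 with a standard error of 0.14 (adjusted p = 2.87e-05, edgeR), which leaves 44.1% of the control mean.

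**Figure D1:**
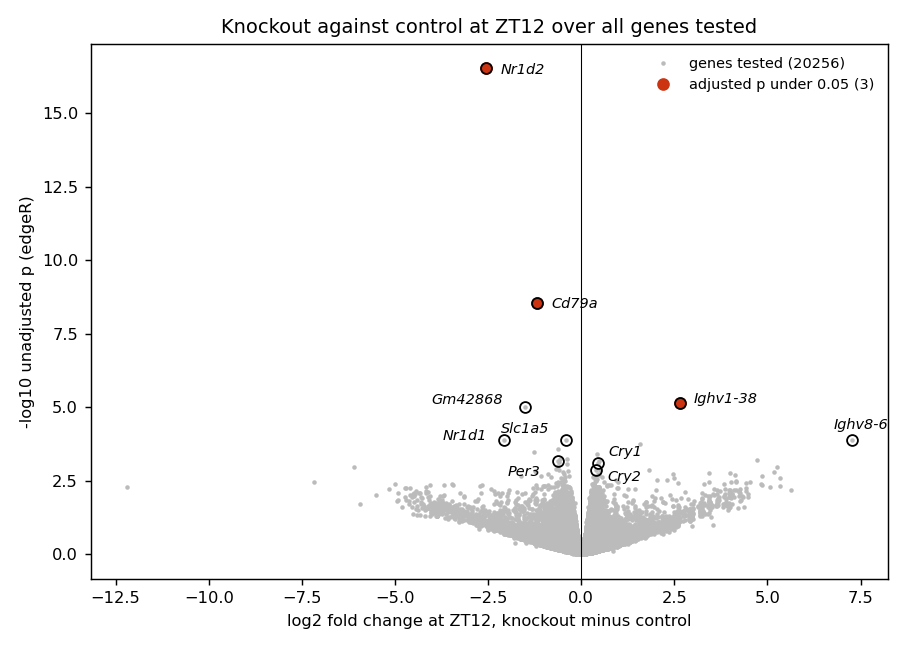
Each point is 1 of the 20256 genes tested at ZT12, placed by its log2 fold change (knockout minus control) and by the -log10 of its unadjusted p from edgeR, with the 3 called genes in red and further named genes circled. Nr1d2 (-2.55) and Cd79a (-1.18) stand clear of all other genes, and Ighv1-38 (2.64) and Gm42868 (-1.51) lie on either side of the threshold.

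*Ighv1-38*, annotated as a pseudogene of the heavy chain V region, was the only gene called higher. Control libraries held 0.122, 0.819 and 1.91 CPM (lowest, median and highest). Knockout libraries held 2.96, 3.77, 4.57, 4.69 and 12.2 CPM. The groups did not overlap, but the gene rested on 2 to 189 counts a library. Its log2 fold change was 2.64 with a standard error of 0.45 (adjusted p = 0.0462, edgeR), and it was still called in only 4 of the 21 fits with 1 library left out. V genes also share reads with near-identical copies, which makes its count uncertain. Just outside the threshold lay *Gm42868*, a sense intronic transcript on chromosome 3, at 2.40, 2.74 and 5.37 CPM (lowest, median and highest) in control libraries. Its knockout libraries held 0.852, 1.048, 1.16, 1.17 and 1.28 CPM. These groups did not overlap either (log2 fold change -1.51, adjusted p = 0.0502, edgeR), and reads of the gene around it could not be told apart from its own. DESeq2 called it (adjusted p = 0.000386).

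The next smallest p-values were not called by edgeR. On the lower side they belonged to *Slc1a5*, *Nr1d1* and the pseudogene *Gm38158* (-0.64), and on the higher side to *Ighv8-6*, the pseudogene *Gm4130* (1.58), *Unc119b* (0.42), *Myo15* and *Sash3* (0.47). *Unc119b* encodes a carrier of lipid-modified proteins and *Sash3* an adaptor of lymphocyte signalling, and both were higher in every knockout library than in any control library. *Ighv8-6* shows how unequal V gene levels were among knockout mice, at 0, 0.247, 0.708, 5.74 and 15 CPM, while the control libraries held at most 0.0727 CPM. *Myo15*, an unconventional myosin, was at 0 in all control libraries and at a mean of 0.192 CPM in knockout libraries.

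Among the nuclear receptors of the clock, *Nr1d1* was low beside *Nr1d2*. Control libraries held 2.43, 6.15 and 10.3 CPM of *Nr1d1* (lowest, median and highest). Knockout libraries held 0.451, 0.538, 1.23, 1.58 and 3.57 CPM. Only knockout replicate 5, at 3.57 CPM, reached into the control range. The log2 fold change was -2.07 with a standard error of 0.45 (adjusted p = 0.379 in edgeR, 0.00457 in DESeq2). Without knockout replicate 5 it was -2.71 and was called (adjusted p = 0.00897, edgeR). At 7 to 167 counts a library it was measured far less precisely than *Nr1d2*. In the libraries with high *Xist* its log2 ratio was -1.06 and in those with low *Xist* -3.13. The former held only 2 knockout libraries, replicate 1 at 1.23 CPM and replicate 5, so that their ratio rests largely on replicate 5. *Rora*, which encodes an activator at ROR elements, was not called and differed by 0.51 with a standard error of 0.44.

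**Figure D2:**
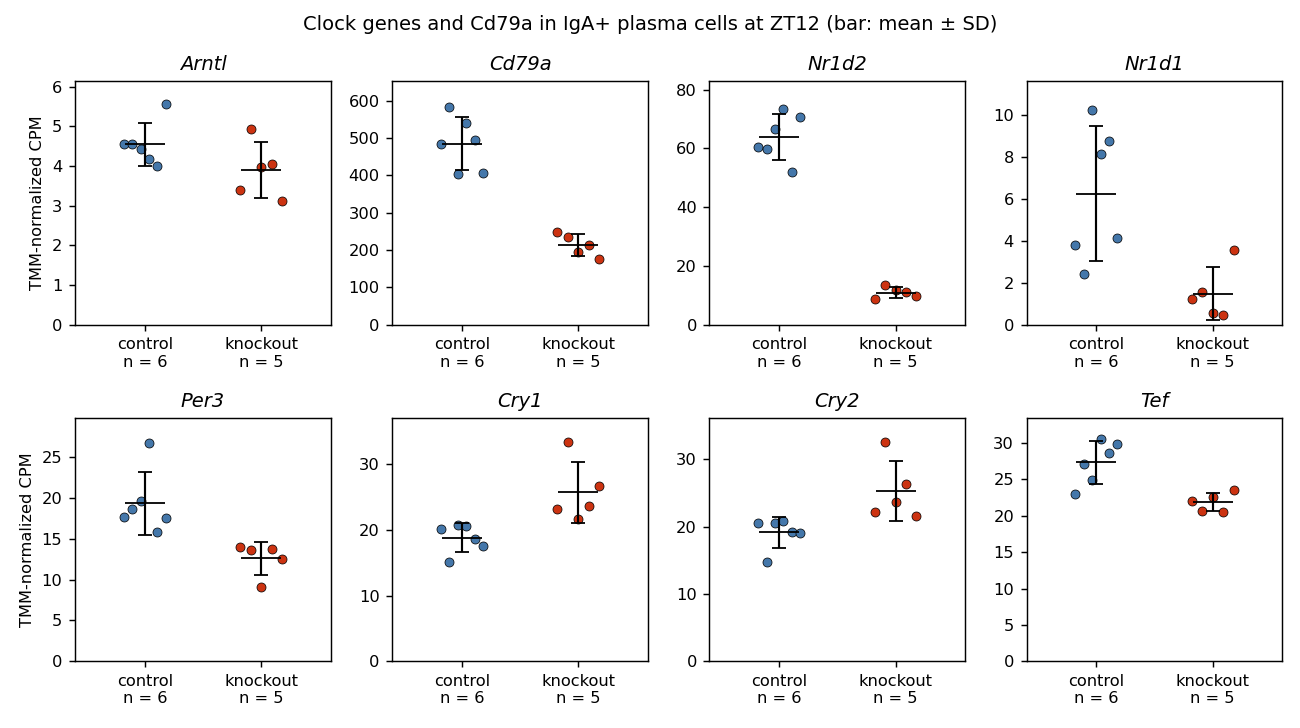
TMM-normalized CPM of 7 clock genes and Cd79a in each of the 6 control and 5 knockout libraries at ZT12, with the mean and SD of each group as bars and axes that start at 0. Nr1d2, Cd79a and Per3 are separated downwards, Cry1 and Cry2 upwards, and Arntl, Nr1d1 and Tef overlap.

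*Arntl* itself did not separate the genotypes at this time of day. Control libraries held 4.00, 4.49 and 5.56 CPM (lowest, median and highest), and knockout libraries, in ascending order, 3.11, 3.39, 3.97, 4.06 and 4.93 CPM. The ranges overlapped (log2 fold change -0.23, standard error 0.16, adjusted p = 0.678, edgeR). These values cover all exons of the gene, most of which lie outside the floxed part, and so they do not test the deletion. *Clock*, the partner of Bmal1, differed by 0.17 with a standard error of 0.14. The paralogs *Npas2* and *Arntl2* were below 0.2 CPM in the mean of both groups.

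The repressors differed in direction. For *Per3* the control libraries held 15.8, 18.1 and 26.7 CPM (lowest, median and highest). The knockout libraries held 9.08, 12.5, 13.6, 13.8 and 13.9 CPM, all below the controls. The log2 fold change was -0.62 with a standard error of 0.16 (unadjusted p = 0.000673, adjusted p = 0.562, edgeR), and the log2 ratio was -0.40 in the libraries with high *Xist* and -0.81 in those with low *Xist*. *Per1* (-0.14, standard error 0.14) and *Per2* (0.12, standard error 0.24) overlapped between the groups. Of these, *Per1* was the most abundant by CPM, at means of 183 and 165 CPM.

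Both cryptochrome genes were higher. For *Cry1* the control libraries held 15.2, 19.4 and 20.8 CPM and the knockout libraries 21.6, 23.1, 23.7, 26.7 and 33.4 CPM. For *Cry2* the control libraries held 14.8, 19.9 and 20.8 CPM and the knockout libraries 21.6, 22.25, 23.7, 26.4 and 32.6 CPM. Neither gene showed any overlap, although knockout replicate 3 for *Cry1* and knockout replicate 5 for *Cry2* came within about 1 CPM of the highest control. The log2 fold changes were 0.45 for *Cry1* (standard error 0.12, unadjusted p = 0.000791) and 0.40 for *Cry2* (standard error 0.11, unadjusted p = 0.00132), and the adjusted p was 0.562 for each in edgeR. With any 1 library left out they ranged from 0.34 to 0.51 and from 0.29 to 0.45. The ratios were 0.47 and 0.42 for *Cry1*, and 0.27 and 0.45 for *Cry2*, in the libraries with high and with low *Xist*.

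The output factors showed smaller differences. *Tef* held 23.0, 27.9 and 30.5 CPM in control libraries (lowest, median and highest) and 20.6, 20.7, 22.1, 22.5 and 23.6 CPM in knockout libraries. Its groups overlapped through control replicate 1 alone (log2 fold change -0.32, standard error 0.09, unadjusted p = 0.00216, adjusted p = 0.562, edgeR). *Tef* differed by -0.18 with library size only (unadjusted p = 0.112, edgeR) and by -0.6 with the gene length trend removed. *Dbp* (-0.39, standard error 0.28), *Nfil3* (0.33, standard error 0.21) and *Ciart* (-0.55, standard error 0.33) were within 2 standard errors of 0. So were *Bhlhe40* (0.19) and *Bhlhe41* (-0.05), the DEC repressors that compete for E-boxes. *Hlf* was detected at means of 0.117 and 0.457 CPM only. In all, 1 of these 20 clock genes was called, and 6 passed an unadjusted p of 0.05, where 4.25% of all genes did so as higher and 4.58% as lower. Among 9 modifiers of clock proteins none was called, and *Gsk3b*, a kinase that phosphorylates REV-ERB and cryptochrome proteins, was higher (0.41, unadjusted p = 0.0331, and 0.18 with the gene length trend removed).

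Promoters are shown for *Nr1d2*, *Per3*, *Cry1* and *Tef*, which differed at an unadjusted p under 0.05 and hold different clock elements, and for *Ciart*, which held 3 E-boxes and did not pass. The sequences are from RefSeq on GRCm38.p6, 5′ to 3′ along the gene, and run over the 250 bases before the annotated start. Capitals mark the E-box CACGTG, the D-box TTATGTAA and the core AGGTCA of the ROR element, each searched on both strands. The windows are chr14:18239107-18239356 (minus strand) for *Nr1d2*, chr4:151044666-151044915 (minus strand) for *Per3*, chr10:85185055-85185304 (minus strand) for *Cry1*, chr15:81802423-81802672 (plus strand) for *Tef* and chr3:95882229-95882478 (minus strand) for *Ciart*.
Nr1d2: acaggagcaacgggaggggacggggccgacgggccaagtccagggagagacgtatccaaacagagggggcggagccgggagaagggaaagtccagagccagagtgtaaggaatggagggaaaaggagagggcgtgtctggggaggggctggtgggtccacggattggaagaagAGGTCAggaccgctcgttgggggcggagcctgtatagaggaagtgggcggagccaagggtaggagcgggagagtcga
Per3: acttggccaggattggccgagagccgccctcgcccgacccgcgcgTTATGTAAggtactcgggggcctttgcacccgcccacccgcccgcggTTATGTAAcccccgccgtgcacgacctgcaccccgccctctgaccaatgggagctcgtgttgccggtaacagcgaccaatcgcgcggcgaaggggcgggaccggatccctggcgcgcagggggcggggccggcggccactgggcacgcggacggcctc
Cry1: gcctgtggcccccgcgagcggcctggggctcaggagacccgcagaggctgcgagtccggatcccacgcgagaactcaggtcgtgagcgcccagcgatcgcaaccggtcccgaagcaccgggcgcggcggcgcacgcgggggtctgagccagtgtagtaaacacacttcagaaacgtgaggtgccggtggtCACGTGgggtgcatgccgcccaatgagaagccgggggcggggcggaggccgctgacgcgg
Tef: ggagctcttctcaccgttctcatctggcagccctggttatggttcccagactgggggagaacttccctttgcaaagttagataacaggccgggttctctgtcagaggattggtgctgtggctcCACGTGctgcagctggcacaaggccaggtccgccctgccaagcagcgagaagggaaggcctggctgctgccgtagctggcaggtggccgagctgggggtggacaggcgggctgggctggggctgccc
Ciart: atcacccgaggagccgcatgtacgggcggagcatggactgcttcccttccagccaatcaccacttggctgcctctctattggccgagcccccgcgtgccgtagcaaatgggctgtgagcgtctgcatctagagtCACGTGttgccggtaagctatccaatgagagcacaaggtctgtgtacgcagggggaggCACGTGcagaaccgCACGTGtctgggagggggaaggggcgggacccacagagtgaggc
The E-box lay at -60 in *Cry1*, at -127 in *Tef*, and at -116, -58 and -44 in *Ciart*, counted from the start to the first base of the element. *Per3* held D-boxes at -205 and -158 and no E-box in this window. *Nr1d2* held a ROR element core at -77 and no E-box in this window. Of the promoters shown, only that of *Nr1d2* was followed by bases found in no transcript of the gene in GENCODE M21. Its annotated start is thus less certain than the others. With the 50 bases after the start included, 5 of 17 clock genes with a window held an E-box (29.4%), against 8.09% of all 27025 genes in the table. Over the genes tested the share was 10.8%, and it was 12.1% of the 564 genes lower and 10.9% of the 543 genes higher at an unadjusted p under 0.05 that had a window. The ROR element core is common: 18.1% of all genes and 16.1% of the genes tested held it, against 5 of 17 clock genes (29.4%). The D-box was held by 1.11% of all genes, 0.758% of the genes tested and 1 of 17 clock genes (5.88%).

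At lights on, in other mice, the same contrast called *Nr1d2* and *Cd79a* and no other gene in edgeR (2 genes, 0.00987%). Their log2 fold changes were -2.24 and -1.21 there. *Nr1d1* differed by -2.24 at ZT0 (unadjusted p = 0.00038), *Cry1* by 0.69 (unadjusted p = 9.72e-06) and *Cry2* by 0.57 (unadjusted p = 5.02e-05). *Per3* differed by -0.25 (unadjusted p = 0.154) and *Per2* by 0.83 (unadjusted p = 0.00459). The difference between the times was itself tested: edgeR called 0 genes, DESeq2 called 4, and 2191 genes (10.8%) passed an unadjusted p of 0.05 in edgeR. *Nr1d2* (difference -0.31, unadjusted p = 0.0946), *Nr1d1* (0.17, unadjusted p = 0.787), *Cry1* (-0.24, unadjusted p = 0.186) and *Cry2* (-0.17, unadjusted p = 0.31) did not pass it. *Tef* had the smallest p of all genes in it, being lower in knockout PCs at ZT12 (-0.32) and higher at ZT0 (0.44). The difference was -0.76 (adjusted p = 0.138 in edgeR, 0.00114 in DESeq2). With 1 library left out, the adjusted p in edgeR ran from 0.0317 (without control ZT12 replicate 1) to 0.62 (without knockout ZT0 replicate 3). It was 0.511 with library size only. *Arntl*, by contrast, was lower at ZT0 by 0.68 on the log2 scale (unadjusted p = 0.000486), and the difference of 0.45 between the times had an unadjusted p of 0.0627.

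Of 11713 genes with a mean of at least 1 CPM at ZT12, 80 had an unadjusted p under 0.05 at both times. Of these, 27 (0.231% of the 11713) went in 1 direction, and 53 went in opposite directions. With 1 library left out the 27 became 19 to 32, and the 53 became 10 (without knockout ZT0 replicate 3) to 118 (without control ZT12 replicate 1). The balance turned with the immunoglobulin share as a covariate, where 20 went in 1 direction and 5 in opposite directions, and with the replicate number as a block, where 40 and 30 did. The 27 held the 5 clock and Cre locus genes *Nr1d2*, *Nr1d1*, *Cry1*, *Cry2* and *Cd79a*. They also held *Slc1a5*, which encodes a glutamine carrier, *Kcnn4*, which encodes a calcium-activated potassium channel, *Ercc1*, a subunit of a DNA repair nuclease, and *Egln3*, an oxygen-sensing prolyl hydroxylase (-0.80 at ZT12 and -1.14 at ZT0). A further 4 of them were immunoglobulin V genes, all higher in knockout libraries at both times, and these share reads with near-identical copies.

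**Figure D3:**
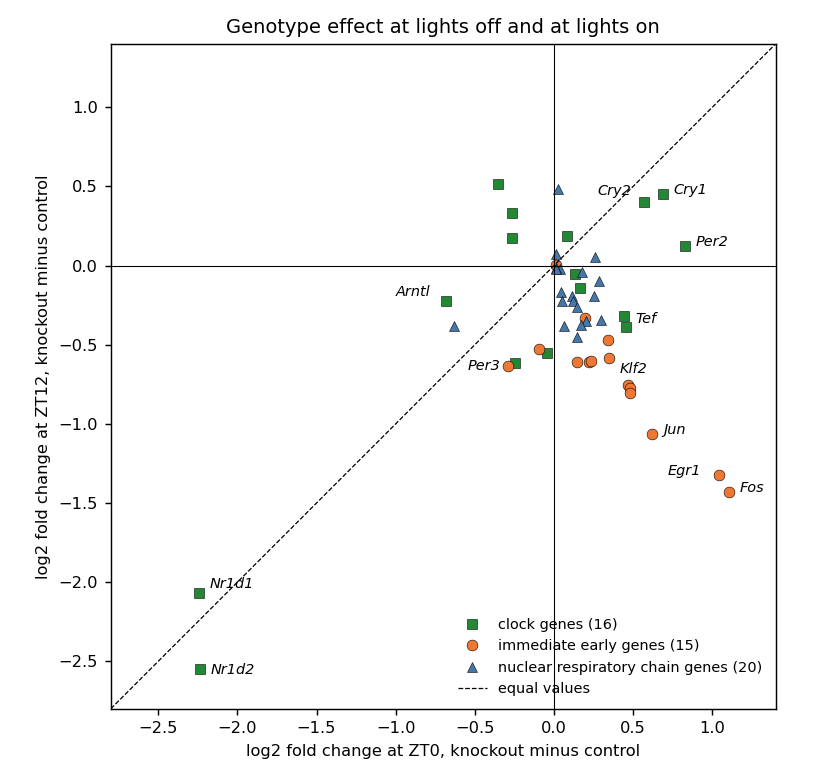
Log2 fold change, knockout minus control, at ZT12 (vertical) against ZT0 (horizontal) for the 16 clock genes with at least 1 CPM in control libraries at ZT12, 15 immediate early genes and 20 nuclear respiratory chain genes, with a dashed line of equal values. Nr1d1, Nr1d2, Cry1 and Cry2 lie on the same side of 0 at both times, while Fos, Egr1 and Jun lie at negative values at ZT12 and positive values at ZT0.

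*Slc1a5* was the clearest of the remaining genes, at 286, 300 and 340 CPM (lowest, median and highest) in control libraries. The knockout libraries held 216, 221, 227, 240 and 240.3 CPM. All knockout libraries were below all control libraries (log2 fold change -0.42, standard error 0.09, adjusted p = 0.379 in edgeR and 0.000712 in DESeq2). *Slc1a5* lies on chromosome 7 at -8.12 Mb from *Cd79a*, and other genes of that stretch were lower as well. Of the 27 genes above, 9 lie on chromosome 7, which holds 7.45% of the 11713 genes. The 9 include *Cd79a* itself, and not all were lower. *Siglecg* (0.69 at ZT12), *Pop4* (0.62) and the pseudogene *Gm5905* (1.2) were higher at both times, at 18.51, 13.36 and 116.28 Mb from *Cd79a*. Within 10 Mb of *Cd79a* on either side, 28 of 210 genes of at least 1 CPM (*Cd79a* left out) were lower at an unadjusted p under 0.05 at ZT12 (13.3%), against 5.18% of all 11713 such genes, and 9 were higher (4.29%). At ZT0, 7 of the same 210 genes were lower and 6 higher. Fewer genes passed that mark at ZT0 in general, 454 of all 20256 genes tested as lower (2.24%) and 539 as higher. The counts near *Cd79a* at the 2 times therefore cannot be compared directly.

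Within this stretch the 5 genes that passed an unadjusted p of 0.05 at both times in 1 direction were all lower: *Slc1a5*, *Kcnn4* (-0.36 at ZT12 and -0.51 at ZT0), *Ercc1* (-0.47 and -0.40), *Inafm1* (-0.61 and -0.47) and the pseudogene *Prkcz2* (-0.77 and -0.74). *Kcnn4*, at -0.53 Mb from *Cd79a*, held 247, 277 and 307 CPM in control libraries (lowest, median and highest) and 193, 194, 205, 223 and 266 CPM in knockout libraries. Only knockout replicate 1 reached the control range. *Coq8b*, a mitochondrial kinase of coenzyme Q synthesis 2.34 Mb after *Cd79a*, was lower at ZT12 with no overlap (-0.62) but not at ZT0 (0.14), and the glutamate receptor gene *Grik5*, 0.11 Mb after it, was higher at ZT12 with no overlap (0.40). These genes were looked at after their values were seen, neighbours share a stretch of chromosome, and the cause of their lower level was not tested. The count of 28 was 18 without control replicate 2 (8.57%, against 2.58% of all genes in that fit), 9 with library size only (4.29% against 1.2%), where 16 neighbours were higher, and 9 with the immunoglobulin share as a covariate (4.29% against 1.21%).

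**Figure D4:**
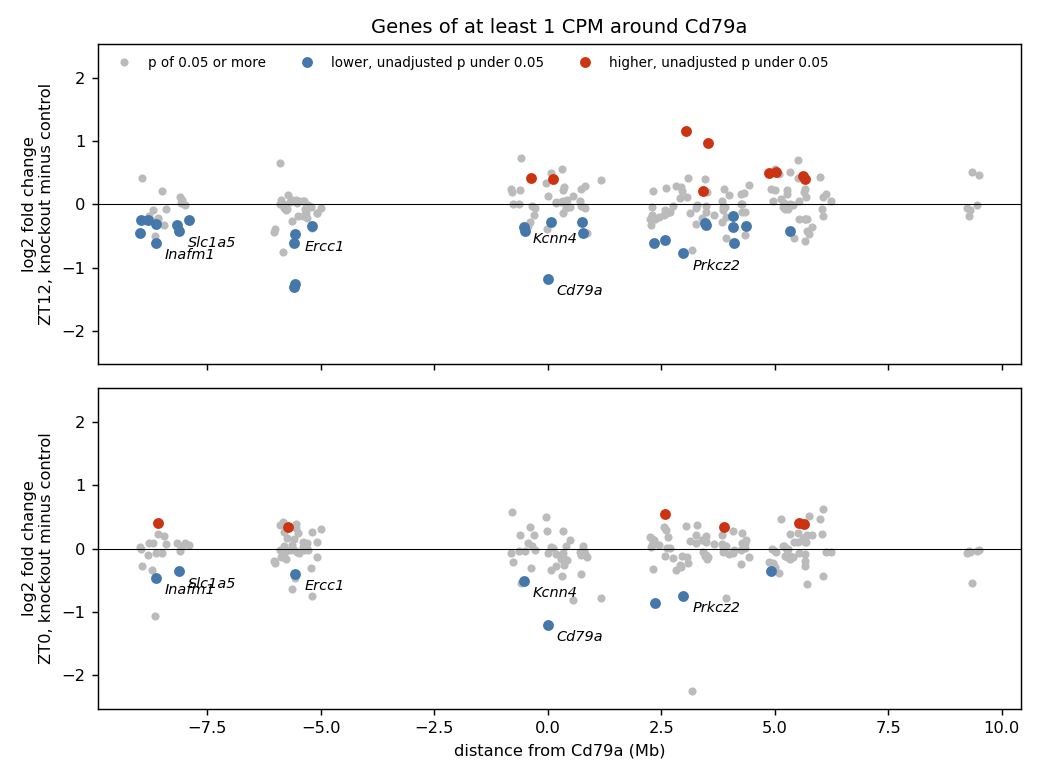
Log2 fold change, knockout minus control, at ZT12 (top) and ZT0 (bottom) of genes with a mean of at least 1 CPM at ZT12, by their distance from Cd79a in Mb. At ZT12, 28 neighbours are lower and 9 higher at an unadjusted p under 0.05, and Slc1a5, Inafm1, Ercc1, Kcnn4 and Prkcz2 are lower in both panels.

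A broad difference at lights off lay in the immediate early genes, the transcription factors and feedback genes that cells switch on within minutes of a stimulus or of tissue digestion. Of 15 tested, 12 were lower in knockout PCs at an unadjusted p under 0.05, where 4.58% of all genes were, 0 were higher, and 0 were called by edgeR or DESeq2. The median log2 fold change of the list was -0.61, against -0.01 over all genes. *Fos* held 203, 773 and 1270 CPM in control libraries (lowest, median and highest) and 178, 187, 207, 218 and 547 CPM in knockout libraries. Control replicates 1 and 6 were low and knockout replicate 2 was high, so that the groups overlapped (log2 fold change -1.43, standard error 0.53, adjusted p = 0.562, edgeR). *Egr1* (-1.32, standard error 0.55), *Jun* (-1.06, standard error 0.50), *Junb* (-0.75, standard error 0.26), *Fosb* (-0.61, standard error 0.24) and the orphan receptor gene *Nr4a1* (-0.53, standard error 0.19) shared the direction, and *Btg2* (0.00) did not. *Fosb* and *Zfp36* (-0.33) lie at -5.59 and 3.48 Mb from *Cd79a*. For *Fos* the log2 ratio of means was -2.02 in the libraries with high *Xist* and -1.06 in those with low *Xist*.

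*Klf2*, which encodes a factor that governs lymphocyte trafficking, was the member with the smallest p. Its control libraries held 124, 182 and 207 CPM (lowest, median and highest) and its knockout libraries 98.1, 115.5, 116, 123.9 and 130 CPM. The knockout libraries clustered near the lowest control, replicate 6 (log2 fold change -0.59, standard error 0.16, unadjusted p = 0.00135, adjusted p = 0.562, edgeR). At ZT0, 0 of the 15 genes were lower at an unadjusted p under 0.05, where 2.24% of all genes were, and their median was 0.34. The difference between the times passed an unadjusted p of 0.05 in 11 of 15 genes, against 10.8% of all genes. Without knockout ZT0 replicate 3, which had the highest level of these genes (8 as mean log2(CPM + 1)) and an immunoglobulin share of 59.4%, this held for 6 of 15, against 5.25% of all genes, and the ZT0 median was 0.03. The difference for *Fos* was -2.53 (unadjusted p = 0.00366), and -1.74 (unadjusted p = 0.0211) without that library. For *Klf2* it was -0.94 (unadjusted p = 0.000523), and -0.62 (unadjusted p = 0.00202) without it.

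The level of these genes was high in the libraries with the highest immunoglobulin share. Their mean level, as log2(CPM + 1), was 7.85, 7.78 and 7.77 in control replicates 2, 5 and 4, which had the highest shares at ZT12 (63.6%, 59.1% and 59.5%). It was also high, at 7.68, in control replicate 3, with a share of 53.3%. In the knockout libraries it ran from 6.56 to 7.33 at shares of 53.7% to 55.7%. With the share as a covariate, 2 of the 15 were lower at an unadjusted p under 0.05 and the median was -0.42, and the difference between the times passed in 1 of 15. The count of 12 was 8 with library size only, 8 without control replicate 2, 7 without knockout replicate 1, and 8 without knockout replicate 3 or 4. The part of the immunoglobulin share in the lower level of these genes was not tested.

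**Figure D5:**
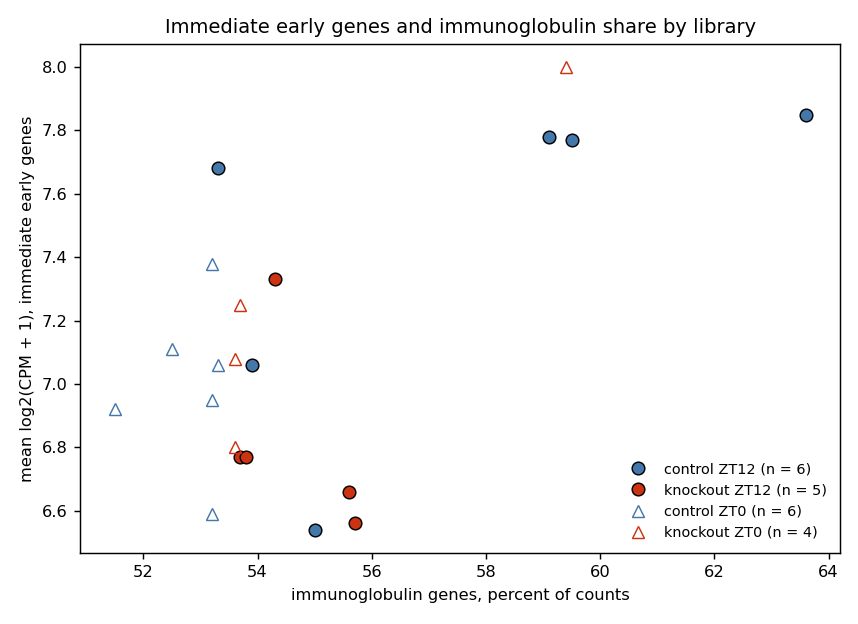
Mean log2(CPM + 1) of the immediate early genes (vertical) against the share of counts on immunoglobulin genes in percent (horizontal), 1 point for each of the 21 libraries. The control libraries at ZT12 spread from 6.54 to 7.85, while 4 of the 5 knockout libraries at ZT12 lie below 6.8 and the fifth at 7.33.

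Immunoglobulin genes took 57.4% ± 3.99 (SD, n = 6) of counts in control and 54.6% ± 0.953 (SD, n = 5) in knockout libraries. The difference of -2.78 percentage points was not significant (two-sided exact permutation test over 462 splits, p = 0.165). For the constant region genes and the J chain alone the shares were 49.3% and 44.5% and differed by -4.88 points (p = 0.0368 in the same exact test). Without control replicate 2 the 2 differences were -1.54 (exact permutation p = 0.349) and -3.18 points (exact permutation p = 0.0397). Leaving out any 1 knockout library took the second p over 0.05, to between 0.0524 and 0.0762 by exact permutation. *Igha* held 272000, 324000 and 518000 CPM in control libraries (lowest, median and highest) and 266000 to 295000 CPM in knockout libraries. The knockout values thus lay inside the lower part of the control range (log2 fold change -0.32, standard error 0.13, adjusted p = 0.562, edgeR). *Igkc*, the kappa light chain, differed by -0.37 (standard error 0.13), and *Jchain*, which joins IgA into dimers, by -0.24 (standard error 0.11, unadjusted p = 0.0336). Without control replicate 2, *Igha* differed by -0.18 (unadjusted p = 0.0679, edgeR) and *Igkc* by -0.22. With the immunoglobulin share as a covariate the 3 genes differed by -0.05, -0.11 and -0.05. *Igha* and *Igkc* are themselves counted in that share, so that this fit cannot test their difference. At ZT0 *Igha*, *Igkc* and *Jchain* differed by 0.11, 0.08 and -0.08.

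Genes of plasma cell identity differed little. Of 19 tested, 2 were lower at an unadjusted p under 0.05 (*Xbp1* and *Jchain*), 1 was higher (*Cd93*) and 0 were called. Over all genes, 4.58% were lower and 4.25% higher at that mark. *Xbp1*, which drives the secretory programme, held 1933, 2380 and 3022 CPM in control libraries (lowest, median and highest) and 1908, 2027, 2098, 2135 and 2323 CPM in knockout libraries. The ranges overlapped widely (log2 fold change -0.24, standard error 0.11, unadjusted p = 0.0345, edgeR). *Xbp1* differed by -0.17 without control replicate 2 and by -0.08 with library size only (unadjusted p = 0.354, edgeR). It differed by -0.09 with the immunoglobulin share as a covariate (unadjusted p = 0.285, edgeR) and by -0.39 with the gene length trend removed. *Cd93*, a surface receptor needed for the upkeep of antibody-secreting cells, differed by 0.39 (standard error 0.18, unadjusted p = 0.0385), and by 0.18 with the immunoglobulin share as a covariate. In the unfolded protein response 3 of 25 genes were lower, *Xbp1* again and the stress factors *Atf4* (-0.36) and *Ddit3* (-0.49), where 4.58% of all genes were, 0 were higher, and the median of the list was 0.03. The list held 0 lower and 2 higher genes with library size only, 0 lower without control replicate 4 or with the immunoglobulin share as a covariate, and 1 lower without control replicate 2 or knockout replicate 3, 4 or 5. Of 22 genes of the B cell receptor and B cell identity, *Cd79a* was called, the kinase gene *Syk* was higher (0.23, unadjusted p = 0.0247, and -0.04 with the gene length trend removed) and *Fcer2a* was lower at a mean of 0.171 against 0.0117 CPM. None of 9 MHC class II genes passed an unadjusted p of 0.05.

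Nuclear genes of the respiratory chain were the only metabolic list with several members on one side at an unadjusted p under 0.05. Of 20 tested, 6 were lower at an unadjusted p under 0.05, where 4.58% of all genes were, 0 were higher and 0 were called, with a median of -0.19. Among them were *Cox7a2l* (-0.45, standard error 0.17, and -0.27 without control replicate 2), which helps to join respiratory complexes, *Ndufb8* (-0.38, standard error 0.14) and *Ndufv1* (-0.23, standard error 0.09) of complex I, and *Cox4i1* (-0.38, standard error 0.17) of complex IV. At ZT0 none was lower, the median was 0.12, and the difference between the times passed an unadjusted p of 0.05 in 8 of 20, against 10.8% of all genes, and in 0 (without knockout ZT0 replicate 3) to 11 of 20 with 1 library left out. The count of 6 rested on few libraries, being 1 without control replicate 2, 3 without control replicate 4 or 5 or knockout replicate 1 or 4, 1 with library size only and 0 with the immunoglobulin share as a covariate. Of 13 genes of the mitochondrial genome, 0 passed an unadjusted p of 0.05, although 10 of the 13 had a negative log2 fold change (median -0.23).

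Other metabolic lists held single genes at an unadjusted p under 0.05 and no call. *Hk1*, a hexokinase of glycolysis, was the only one of 15 glycolysis genes to pass, and was higher in all knockout than in any control library. The margin was narrow, with the lowest knockout library at 28.36 CPM and the highest control library at 28.24 CPM (means of 30.1 and 24.1 CPM). Its log2 fold change was 0.32, but 0.07 with the gene length trend removed. By direction alone, 12 of these 15 had a negative log2 fold change (median -0.12). *Mvk*, the mevalonate kinase, was higher (0.44, standard error 0.19) as the only one of 19 cholesterol synthesis genes, and *Rptor*, which encodes the Raptor subunit of mTORC1, as the only one of 12 mTOR genes (0.30, standard error 0.13, but 0.00 with the gene length trend removed). Of 9 amino acid transporters, *Slc1a5* was lower and *Slc38a1* higher (0.25, but 0.15 without control replicate 2 and -0.08 with the gene length trend removed).

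Among the response lists, *Tsc22d3* (GILZ), a target of the glucocorticoid receptor, was lower (-0.56, standard error 0.20) and *Zbtb16* higher (1.75, at means of 0.213 and 0.767 CPM), 2 of 10 glucocorticoid response genes. Of 15 interferon response genes *Irf7* (-0.65) and *Zbp1* (-0.36, and -0.18 without control replicate 2) were lower. Over all genes, 4.25% were higher and 4.58% lower at an unadjusted p under 0.05. With the immunoglobulin share as a covariate, *Tsc22d3* differed by -0.35 (unadjusted p = 0.0885, edgeR) and *Irf7* by -0.43 (unadjusted p = 0.149, edgeR). Of 20 proliferation genes *Mcm2* was higher (0.23, but 0.15 without knockout replicate 5 and 0.02 with the gene length trend removed), and of 12 heat shock genes and 5 sex-linked genes 0 passed an unadjusted p of 0.05. The summed levels of markers of other cells overlapped between the groups: the sum of 15 T and NK cell markers ran from 36.3 to 52.5 CPM in control and 39.4 to 52.2 CPM in knockout libraries, that of 13 myeloid markers from 27.0 to 141 and from 64.9 to 127 CPM, and that of 10 stromal and endothelial markers from 24.4 to 39.0 and from 27.2 to 43.0 CPM. In these 3 lists 1 (*Cd8b1*), 0 and 1 (*Dcn*) markers were higher at an unadjusted p under 0.05, with knockout means of 0.0488 CPM for *Cd8b1* and 0.387 CPM for *Dcn*, and no tested marker was at 0 in all ZT12 libraries. By direction alone, 13 of 15 T and NK cell markers (median log2 fold change 0.82), 6 of 13 myeloid markers (-0.08) and 8 of 10 stromal and endothelial markers (0.37) were above 0, with no other marker past that mark.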

How the data were processed

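Bulk poly-A RNA-seq of sorted IgA+ PCs was analysed for 21 mice, 6 control and 5 knockout at ZT12 and 6 control and 4 knockout at ZT0. The values used are the counts that the authors deposited, whole numbers of reads for each gene with no normalization. The aligner, the counter and the use of strand are not given in the sources used here, so that overlapping and near-identical genes are uncertain. Gene coordinates were those of GRCm38, as 52105 of 53706 genes matched to GENCODE M21 had equal coordinates. Per the study's methods, genes with a total under 10 were removed. With edgeR 4.0.16 in R 4.3.3, TMM factors were computed and a robust quasi-likelihood model of the 4 group means was fitted to all 21 libraries, in which the ZT12, the ZT0 and the difference contrasts were tested. P-values were adjusted by Benjamini-Hochberg over all 20256 genes, and genes under 0.05 are referred to as called. Levels are TMM-normalized CPM. Standard errors come from the same test. The procedure was first tested on simulated data with known changes.

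The immunoglobulin share was compared by a two-sided exact permutation test. Replicate numbers of the labels were not used to pair the mice in the fit reported. Correlations of the deviations between libraries of equal number ran from -0.19 to 0.57, and were over 0.1 in 3 of 5 pairs. This check and the replicate block see equal numbers only, and cannot show whether the mice were grouped in another way. All 25 pairs of libraries within a ZT12 group differed by more than sampling noise (chi-square per gene of 40.8 or more). Each library is taken to be a separate mouse, as the study states.

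The genes named were *Arntl*, *Cd79a*, the tested members of 4 clock lists, the 6 genes of smallest p in each direction, the called members and some of the smallest p of 21 further lists, and immunoglobulin genes. The other immediate early genes, the neighbours of *Cd79a* and the genes at both times were picked with their values in view. The comparison, the members and the lists were chosen with earlier results of these data known. Promoter windows came from a RefSeq table with 32851 windows (GRCm38.p6), which matched 17 of 20 clock genes. The values of 1 clock gene are not reported here.

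Results were recomputed with 1 library left out at a time, with the replicate number as a block, with covariates for the level of *Xist*, the immunoglobulin share or the epithelial markers, with each time fitted alone, after removing the trend of every library with gene length, without immunoglobulin genes, with filterByExpr or with no filter, with library sizes alone or with the size factors of DESeq2, at an adjusted p of 0.01, and with DESeq2 1.42.0 in place of edgeR. The share of the constant region genes and the J chain with 1 library left out was added after the data were seen.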

Additional observations from a re-analysis of the deposited data

Results flagged for a closer look

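A library was looked at again where its gap to the nearest other library of its ZT12 group exceeded Dixon's 95% critical value. This held for 17 of 140 groups of values tested, where chance gives about 1 in 20. Of these, 5 were in control replicate 2: *Cry2* was low there at 14.8 CPM, and *Bhlhe41* (76.4 CPM), *Arntl2* (0.729 CPM), *Igkc* (202000 CPM) and *Zbp1* (83.2 CPM) were high. In knockout replicate 2, *Fos* (547 CPM), *Zfp36* (361 CPM) and *Ighm* (492 CPM) were high and *Gsk3b* was low (44.2 CPM). Control replicate 4 stood apart for *Per3* (26.7 CPM) and *Gm42868* (5.37 CPM), both on the side away from the knockout libraries. Control replicate 6 stood apart for *Arntl* (5.56 CPM) and *Hlf* (0.50 CPM). Among knockout libraries, replicate 1 stood apart for *Nfil3* (60.3 CPM), replicate 4 for *Ighv1-38* (12.2 CPM), and replicate 5 for *Jchain* (41000 CPM) and *Fcer2a* (0.0586 CPM).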

How the results depend on the processing

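*Nr1d2* and *Cd79a* were called in all 12 alternative fits at 0.05 and in all 21 fits that left out 1 library. DESeq2 called 8 genes at ZT12 (2 higher, 6 lower), 5 at ZT0 and 4 in the difference. *Ighv1-38* was not called at a threshold of 0.01, with library size only, with no count filter or on ZT12 libraries only. It was also not called with the replicate block, with any of the 3 covariates and with the length trend removed. Each of these settings left 0 genes called higher. The fit with immunoglobulin genes removed left out *Ighv1-38* itself, so that it could not be called there, and called 0 genes higher. With 1 library left out, the calls ranged from 2 to 4 at ZT12 (0 to 1 higher, 2 to 3 lower), from 2 to 3 at ZT0 and from 0 to 1 in the difference. The replicate block gave 2 calls at ZT12, and 2 of 5 knockout libraries matched their own number best. The immunoglobulin share difference was -4.88 points (exact permutation p = 0.0368) for constant region genes and the J chain only. *Syk* reversed to -0.0423 and *Slc38a1* to -0.0848 with the length trend removed. The cause of these changes was not tested.

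Genes at an unadjusted p under 0.05 at ZT12 numbered 1789, but 731 with the immunoglobulin share as a covariate, 1041 on ZT12 libraries only, 1078 without control replicate 2 and 2741 without control replicate 6. In the difference they numbered 2191, but 1055 without knockout ZT0 replicate 3 and 696 with the immunoglobulin share as a covariate. Of the genes at an unadjusted p under 0.05 at ZT12, 48.1% were higher in the fit reported (861 to 928 genes). This share was 76.7% with library size only (1273 to 386 genes) and 16.6% with the length trend removed (404 to 2032 genes). The median over all genes moved to 0.12 with library size only and to -0.15 with the length trend removed. Differences of that size can depend on the scaling. At 7 to 167 counts of *Nr1d1* a library, depth limits what can be said of low genes.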
